A study of Bos taurus with 15 samples.

Results

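ARGFX, DUXA and DPRX are PRD-like homeobox genes, and each had a row of its own under its symbol in the count table of bovine morulae, so the account covers 3 of the 31999 rows in all 15 libraries. They were taken by name. The morula is the stage at which the cleaving cells compact into a ball before the blastocyst forms. Of the 3 groups of 5 libraries, the androgenetic group (titles beginning with TII) was haploid with a genome from sperm alone. The parthenogenetic group (titles beginning with CHX) was haploid with a genome from the oocyte alone. The ICSI group was diploid and was made by injecting a sperm into an oocyte. The labels name no breed, bull, oocyte donor, batch or number of embryos per library, and the meaning of TII and CHX was not given in the sources used here. Each group was made by its own procedure, so procedure and parental genome cannot be told apart, nor, in the comparisons with the diploid ICSI group, can ploidy.

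PRD-like homeobox genes encode transcription factors whose homeodomain resembles that of the Drosophila gene paired. ARGFX, the arginine-fifty homeobox gene, and DPRX, the divergent paired-related homeobox gene, belong to a set of fast-evolving mammalian genes related to CRX, and DUXA, the double homeobox A gene, belongs to the DUX family. In human embryos they are known for transcription that begins around embryonic genome activation, when the embryo's own genome takes over from RNA stored in the oocyte, and that ends before most tissues form. In cattle that activation falls in the cleavage stages just before the morula.

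Library totals lay between 19968077 and 28981601 counts, and between 13564 and 19950 rows per library had a count. Androgenetic replicate 6 stood apart before any member was considered: it had the fewest genes detected (13564) and the lowest scaling factor (0.649, against at most 1.38). Low factors were also found in androgenetic replicates 2 (0.730) and 5 (0.781) and in parthenogenetic replicate 6 (0.776). Androgenetic replicate 6 had 28462700 counts, so the low number of genes detected did not go with a low total. ICSI replicate 5 had the fewest genes detected of its group (15286), as had parthenogenetic replicate 6 (16154). Results that rest on androgenetic replicate 6 are therefore given with and without it. Of 24 genes fixed as marks of embryos at the morula or blastocyst stage, SOX2 alone had a row under its symbol, and it had counts in every library, from 0.163 to 8.28 CPM (counts-per-million), with the lowest level in androgenetic replicate 6. The lists for oocyte RNA (31 genes), cumulus and granulosa cells (19) and sperm (12) had 0 symbol rows each, so the part of these sources was not tested.

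ARGFX RNA was abundant in every morula library and stood highest in androgenetic ones. The mean of the androgenetic libraries was 1619 ± 1356 CPM, scaled by TMM factors (SD, n = 5), that of the parthenogenetic libraries 603 ± 273 CPM and that of the ICSI libraries 575 ± 267 CPM. The androgenetic libraries had 1004, 778, 1743, 645 and 3923 CPM in replicates 1, 2, 4, 5 and 6. The parthenogenetic libraries had 511, 1064, 345, 503 and 593 CPM in replicates 1, 2, 3, 5 and 6. All 5 androgenetic values lay above the median of either other group in scaled CPM, and the groups overlapped. The ICSI libraries had 540, 535, 256, 544 and 999.6 CPM in replicates 1 to 5, with 3 of the 5 values within a narrow band. An androgenetic library was the higher one in 23 of 25 pairings with an ICSI library and in 22 of 25 with a parthenogenetic one. This order depends on the scaling factors. In CPM of library totals alone, androgenetic replicates 2 and 5 had 567 and 503 CPM, below the ICSI median of 647 CPM. Androgenetic replicate 5 also lay below the parthenogenetic median of 565 CPM there. The gene took 0.254% of all counts in androgenetic replicate 6 (exact Clopper-Pearson 95% interval 0.252% to 0.256%). Such intervals cover counting error only, since reads were amplified and carry no molecular identifiers that the sources name.

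**Figure D1:**
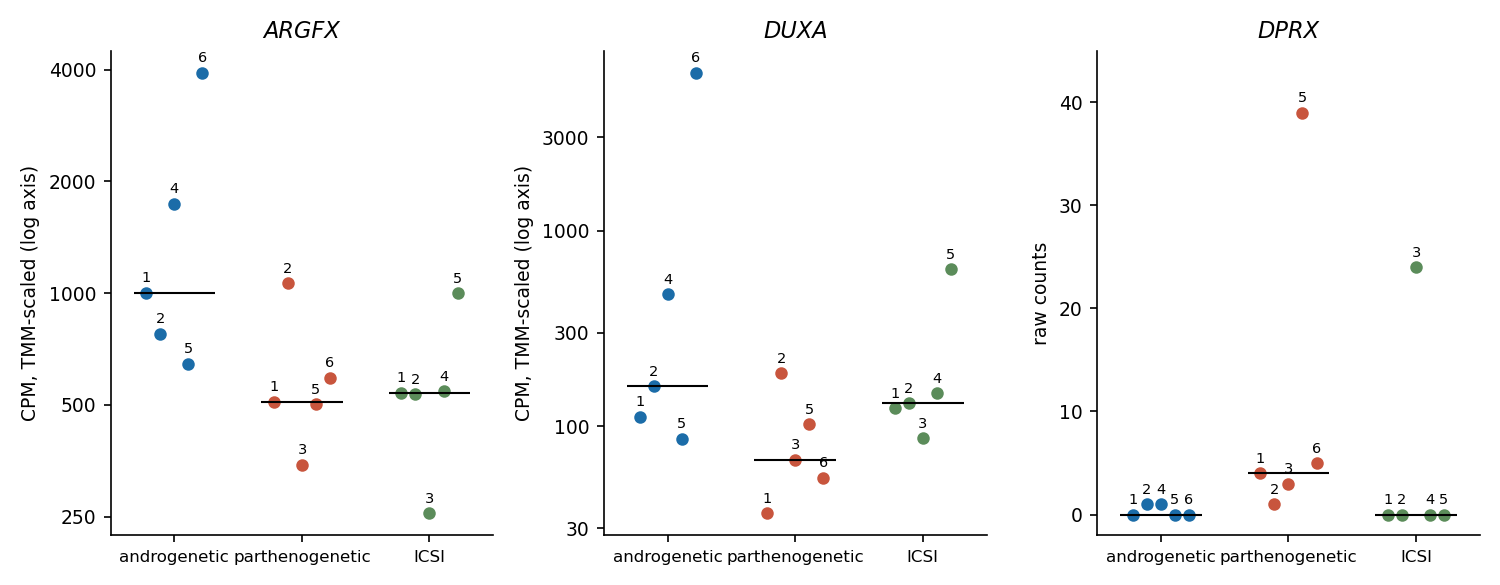
Level of ARGFX and DUXA (TMM-scaled CPM, log axes) and raw counts of DPRX (linear axis) in each library, with replicate numbers beside the points and the group median as a line. Androgenetic replicate 6 is the highest library for ARGFX (3923 CPM) and DUXA (6423 CPM), and DPRX reached 39 counts at most.

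The androgenetic excess of ARGFX was 2.82-fold over ICSI (log2 fold change 1.49 ± 0.50 SE, 95% interval 0.44 to 2.55) and did not pass over all rows in edgeR's quasi-likelihood test (adjusted p = 0.100). Over parthenogenetic libraries it was 2.68-fold (1.42 ± 0.50, interval 0.37 to 2.48), which did not pass either (edgeR adjusted p = 0.131). DESeq2 called both, at log2 fold changes of 1.61 (adjusted p = 0.0243) and 1.55 (adjusted p = 0.0352), while limma voom called neither (adjusted p = 0.0901 and 0.123). Over all 24 alternatives the edgeR, DESeq2 or limma adjusted p ranged from 0.0243 to 0.412 against ICSI and from 0.0352 to 0.364 against parthenogenetic libraries. With library totals alone the edgeR log2 fold changes were 0.96 ± 0.44 against ICSI (adjusted p = 0.206) and 1.04 ± 0.44 against parthenogenetic libraries (0.198). Parthenogenetic and ICSI libraries differed by a log2 fold change of 0.07 ± 0.49 (edgeR adjusted p = 0.99997), with an interval of -0.96 to 1.10, which is too wide to show equal levels. Without androgenetic replicate 6 the androgenetic log2 fold changes of ARGFX were 0.93 ± 0.42 against ICSI (edgeR adjusted p = 0.197) and 0.86 ± 0.42 against parthenogenetic libraries (0.246), and the androgenetic mean was 1043 CPM.

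DUXA RNA was also present in every library, but its level was set apart by single libraries far more than that of ARGFX. Means were 1451 ± 2784 CPM for the androgenetic group (n = 5), 89.4 ± 59.6 CPM for the parthenogenetic group and 225 ± 230 CPM for the ICSI group. The androgenetic libraries had 112, 160, 472, 86.4 and 6423 CPM in replicates 1, 2, 4, 5 and 6, so 1 library held 88.6% of the group's sum. The parthenogenetic libraries had 35.9, 187, 67.3, 103 and 54.4 CPM in replicates 1, 2, 3, 5 and 6. The ICSI libraries had 124, 131, 86.6, 148 and 634 CPM in replicates 1 to 5. In androgenetic replicate 6 DUXA stood 13.6-fold above the next library of its group and took 0.416% of all counts (exact 95% interval 0.414% to 0.419%). By medians the order was androgenetic (160 CPM), ICSI (131 CPM) and parthenogenetic (67.3 CPM), and the first 2 differed 1.21-fold.

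The mean of DUXA was 16.2-fold higher in androgenetic than in parthenogenetic libraries (log2 fold change 4.02 ± 1.09 SE, 95% interval 1.73 to 6.31) and did not pass over all rows in edgeR (adjusted p = 0.0615). It was 6.45-fold higher than in ICSI libraries (2.69 ± 1.03, interval 0.53 to 4.85, edgeR adjusted p = 0.147). Without androgenetic replicate 6 the log2 fold change against ICSI was -0.06 ± 0.63 (edgeR adjusted p = 0.970) and that against parthenogenetic libraries 1.28 ± 0.63 (adjusted p = 0.249), at an androgenetic mean of 207 CPM. The size of the androgenetic difference thus rested on that library. Its sign against ICSI was positive again once ICSI replicate 5 was left out too: without the 3 libraries that had the fewest genes of their groups, which include both, the log2 fold change was 0.83 ± 0.53 against ICSI (edgeR adjusted p = 0.348) and 1.17 ± 0.54 against parthenogenetic libraries (adjusted p = 0.171). Without ICSI replicate 5 or without androgenetic replicate 4 the contrast with parthenogenetic libraries passed in edgeR, at 4.04 (adjusted p = 0.0472) and 4.24 (adjusted p = 0.0425). Those fits called 440 and 738 rows in this contrast, against 287 with all libraries, and both kept androgenetic replicate 6. ICSI replicate 5 is not part of this contrast and enters it only through the shared fit. DESeq2 gave DUXA no p-value in any comparison; by design it withholds the p-value of a gene with an extreme count.

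**Figure D2:**
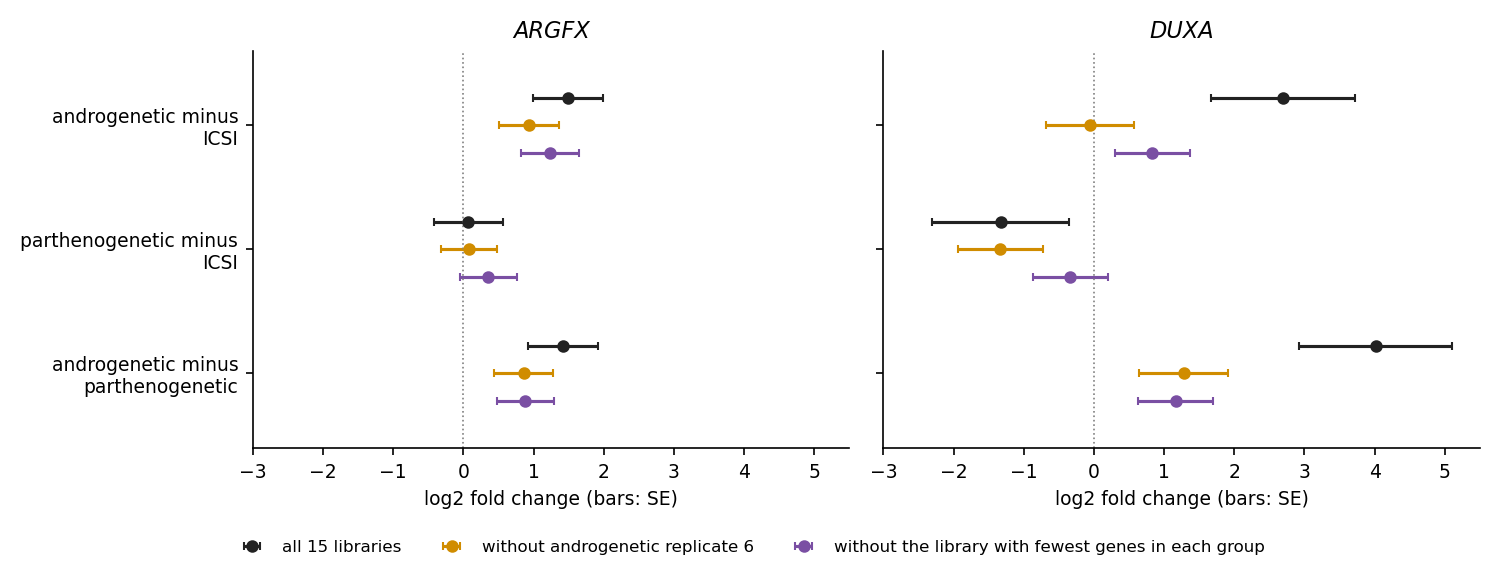
Log2 fold changes of ARGFX and DUXA from edgeR (points, with bars of 1 SE) for the 3 comparisons, from all 15 libraries, without androgenetic replicate 6, and without the 3 libraries that had the fewest genes of their groups. For DUXA the androgenetic minus ICSI value moves from 2.69 to -0.06 without that library, while for ARGFX it moves from 1.49 to 0.93.

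In parthenogenetic libraries the mean of DUXA was 2.51-fold below that of ICSI libraries. Of the 5 parthenogenetic values 3 lay below the lowest ICSI value and 1 above the ICSI median. The log2 fold change of -1.33 ± 0.98 (interval -3.39 to 0.73) did not pass (edgeR adjusted p = 0.99997). The 3 groups share 1 estimate of spread in the fit, and without androgenetic replicate 6 the value was -1.34 with an SE of 0.61 in place of 0.98 (edgeR adjusted p = 1). It was -0.47 without ICSI replicate 5, and -0.33 ± 0.53 without the 3 libraries that had the fewest genes of their groups.

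Of the 2 members that could be tested, edgeR thus called 0 in each comparison. Among all 16375 rows tested it called 2.82% for androgenetic against ICSI, 0.0733% for parthenogenetic against ICSI and 1.75% for androgenetic against parthenogenetic libraries. At an unadjusted p under 0.05 both members passed in the first and the last comparison, where 19.7% and 18.7% of all rows did, and 0 in the comparison of parthenogenetic with ICSI libraries, where 1.86% did. DESeq2 called 1 member, ARGFX, in the first and the last comparison, where it called 12.3% and 10.8% of all rows with an adjusted p, and 0 in the other, where it called 0.268%. The call of ARGFX by DESeq2 thus came from fits that called more rows than edgeR did. The limma voom fit called 0 members in each comparison, against 5.35%, 0.0672% and 4.29% of all rows in the same order as for edgeR. The comparisons share their groups of libraries, so these counts are not separate evidence.

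Relative to ARGFX in the same library, DUXA was lower in all parthenogenetic than in all ICSI morulae. This ratio of 2 rows of 1 library needs no scaling factor, and it is compared between libraries only, since the rows were not put on a scale per length. The parthenogenetic libraries had 7.03, 17.5, 19.5, 20.4 and 9.18 DUXA counts per 100 ARGFX counts in replicates 1, 2, 3, 5 and 6. The ICSI libraries had 23.0, 24.6, 33.9, 27.1 and 63.4 in replicates 1 to 5. The groups did not overlap, and the mean log2 ratio was lower in parthenogenetic libraries by a difference of -1.24, or 2.36-fold (exact two-sided permutation p = 0.00794, the smallest that 252 arrangements allow, adjusted p = 0.0238 over 3 comparisons). Among all other tested rows set over ARGFX in the same way, 0.421% did not overlap between these groups. Random regrouping of 5 and 5 libraries gives non-overlap in a share of 0.00794 of arrangements, which is the exact permutation p above. Non-overlap was thus no more common over all rows than random regrouping gives. The adjusted p covers 3 comparisons and not the choice of this ratio among rows.

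In androgenetic libraries the ratio was 11.1, 20.5, 27.1, 13.4 and 163.7 in replicates 1, 2, 4, 5 and 6, so the group held nearly the whole range. Its mean log2 ratio differed from ICSI by -0.26 (exact permutation p = 0.762, adjusted p = 0.762) and from parthenogenetic libraries by 0.98 (exact permutation p = 0.230, adjusted p = 0.345). Without androgenetic replicate 6 the difference from ICSI was -0.91 (exact permutation p = 0.0476, adjusted p = 0.0714) and that from parthenogenetic libraries 0.33 (exact permutation p = 0.460, adjusted p = 0.460). The parthenogenetic difference from ICSI lay between -1.39 and -0.99 without each library of the 2 groups in turn. Groups that do not overlap stay apart when a library is left out, so the exact permutation test then gives the smallest p it allows each time, and its call is no sign of stability. Without the 3 libraries that had the fewest genes of their groups it was -0.85, at an exact permutation p of 0.0286, the smallest that 4 against 4 libraries allow, which adjusts to 0.0857. The ratio was looked at after the levels had been seen.

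**Figure D3:**
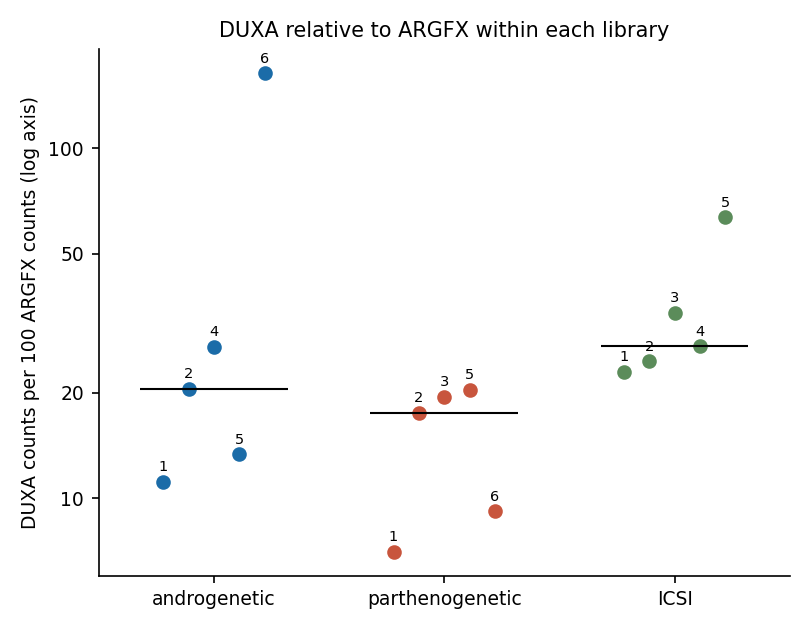
DUXA counts per 100 ARGFX counts in each library (log axis), with replicate numbers and the group median as a line. All 5 parthenogenetic libraries, at 7.03 to 20.4, lie below all 5 ICSI libraries, at 23.0 to 63.4, and androgenetic replicate 6 has 163.7.

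The correlation of ARGFX and DUXA in log2 CPM across the 15 libraries was r = 0.85 (permutation p = 2.30e-04, adjusted p = 0.00161 over 7 relations), and by ranks rho = 0.71 (permutation p = 0.00368, adjusted p = 0.0258). Leaving out the 2 libraries farthest from the median ARGFX level, androgenetic replicates 4 and 6, r was 0.56 and rho 0.57. Over the parthenogenetic and ICSI libraries alone r was 0.61 and rho 0.60, and with each group's mean taken off r was 0.89 over all 15. Both levels carry the same scaling factor within a library. Many rows followed ARGFX more closely: by rho DUXA ranked 12 among the 288 other symbol rows with a mean of at least 5 CPM, and 54 of 8976 rows of that level had a rho of at least 0.8 with ARGFX.

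**Figure D4:**
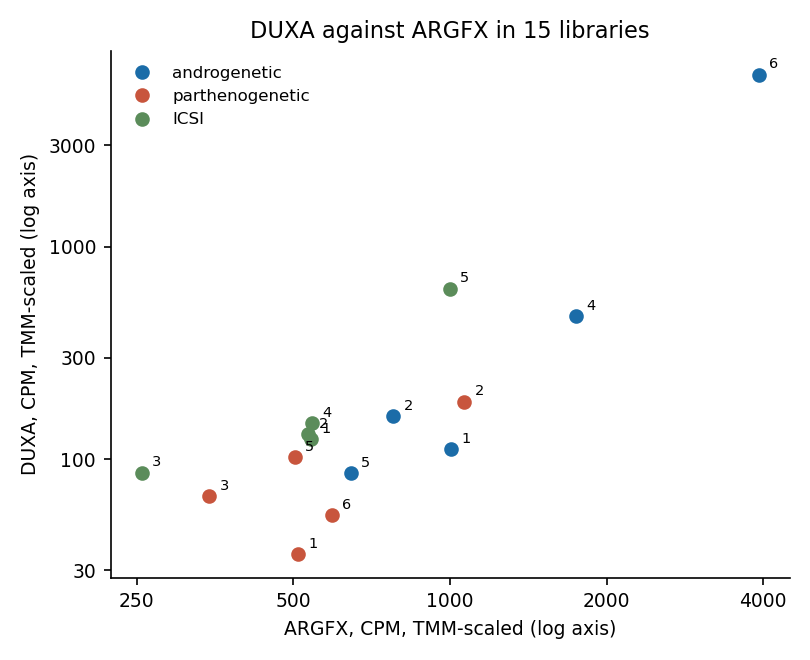
DUXA against ARGFX level (TMM-scaled CPM, log axes) in the 15 libraries, coloured by group with replicate numbers. Androgenetic replicate 6 lies at 3923 CPM ARGFX and 6423 CPM DUXA, and androgenetic replicate 4 and ICSI replicate 5 are the next highest for DUXA at 472 and 634 CPM.

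Scaled ARGFX levels were higher where fewer genes were detected, with r = -0.70 (permutation p = 0.00448, adjusted p = 0.0157) and rho = -0.64 (permutation p = 0.0119, adjusted p = 0.0416). The scaling factor that divides these levels was 0.649 in androgenetic replicate 6 (13564 genes) and 1.38 in ICSI replicate 3 (19755 genes). It was 0.938 in ICSI replicate 5 (15286 genes). The relation is thus not separate from the scaling, and that of unscaled levels was not tested. Without the 2 libraries farthest from the median, androgenetic replicate 6 and ICSI replicate 5, r was -0.38 and rho -0.53. For DUXA r was -0.63 (permutation p = 0.0146, adjusted p = 0.0303) but rho -0.27 (permutation p = 0.326, adjusted p = 0.760), and without the same 2 libraries r was 0.15, so the relation rested on those libraries. Parthenogenetic replicate 6 had the fewest genes of its group and a low DUXA level of 54.4 CPM. With genes detected as a covariate the log2 fold change of ARGFX was 0.86 ± 0.47 for androgenetic against ICSI libraries (edgeR adjusted p = 0.336), and that of DUXA was 0.33 ± 0.88 (0.872). The part of genes detected in the group differences was not tested beyond these values. Total counts had an r of 0.24 with ARGFX and 0.18 with DUXA (permutation p = 0.387 and 0.520, adjusted p = 0.451 and 0.520).

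**Figure D5:**
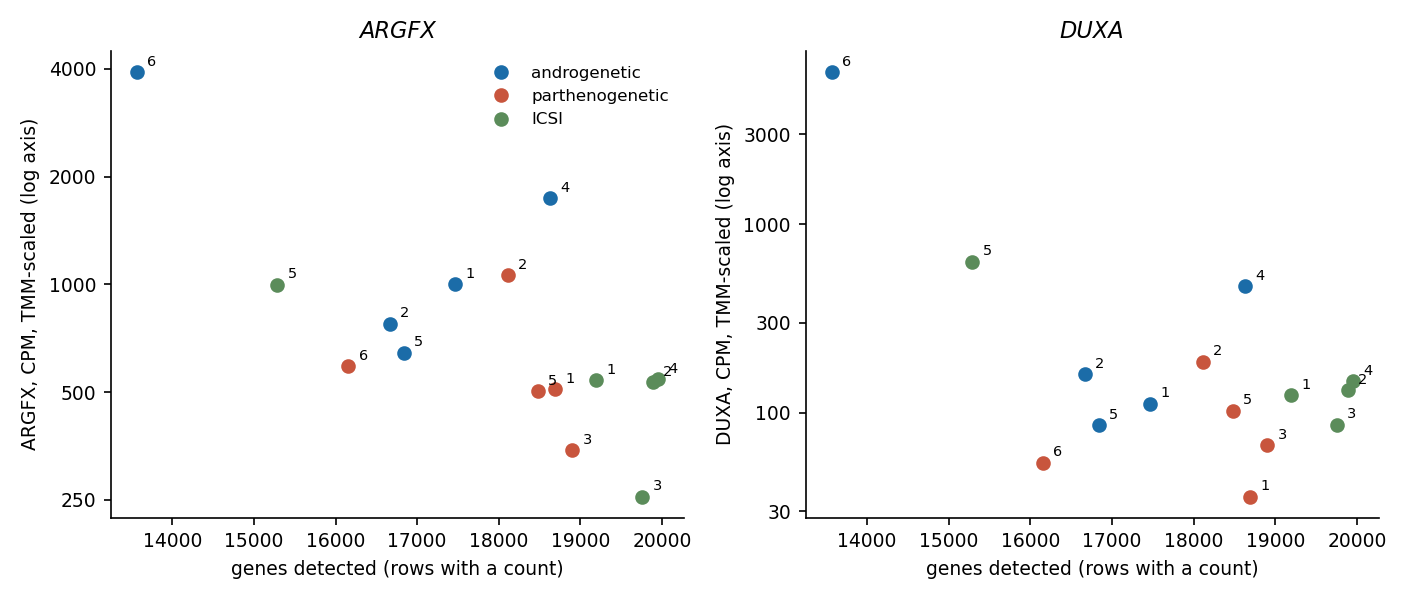
ARGFX and DUXA levels (TMM-scaled CPM, log axes) against the number of rows with a count in each library, coloured by group with replicate numbers. The 2 libraries with fewest genes, androgenetic replicate 6 (13564) and ICSI replicate 5 (15286), are the 2 highest for DUXA.

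DPRX, in contrast, was at the edge of detection. It had 78 counts in all over the 15 libraries and 0 in 7 of them, and it did not pass the expression filter. Parthenogenetic replicates 1, 2, 3, 5 and 6 had 4, 1, 3, 39 and 5 counts. ICSI replicate 3 had 24 counts and the other 4 ICSI libraries 0, while androgenetic replicates 2 and 4 had 1 count each and the other 3 had 0. All 5 parthenogenetic libraries thus held at least 1 count, against 1 of 5 in ICSI and 2 of 5 in androgenetic morulae. More than 3 counts were held by 3 parthenogenetic, 1 ICSI and 0 androgenetic libraries. How many other rows near the floor show such a pattern was not tested. The 2 libraries with 24 or more counts held most of the sum. A count of 0 allows up to 3 counts, which is 0.0937 to 0.178 CPM in the libraries at 0, so a count of 0 does not show that the transcript was absent. The highest level was 1.22 CPM in parthenogenetic replicate 5. In an edgeR fit without the filter no difference passed: the adjusted p was 0.266 for androgenetic against parthenogenetic, 0.440 for androgenetic against ICSI and 1 for parthenogenetic against ICSI libraries. DPRX was at 0 in androgenetic replicate 6, where ARGFX and DUXA were highest.

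Both abundant members had an unnamed row that followed them. ENSBTAG00000052248 held between 0.951 and 0.985 counts for each count of ARGFX in every library (Spearman rho = 0.996 over 15 libraries). ENSBTAG00000050946 held between 0.716 and 0.894 for each count of DUXA (rho = 0.986), with 5032 CPM in androgenetic replicate 6 and at most 493.3 CPM elsewhere. Whether such a row is the same gene under a second name, an overlapping gene or a near-identical copy was not tested, and the 2 members are uncertain as single rows to that extent. The ratio of these 2 unnamed rows also kept parthenogenetic libraries (5.56 to 16.5 per 100) below ICSI libraries (17.0 to 50.7), with a mean log2 difference of -1.17. Since these rows hold nearly the counts of the 2 members, this restates the ratio of DUXA to ARGFX and is no further support for it.

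Among the same 288 symbol rows, those most like ARGFX over the 15 libraries were DYNLT1, a dynein light chain gene (rho = 0.88), HMGN3, a nucleosome-binding protein gene (0.79), TRPM6, a magnesium channel gene (0.78), RPL31, a ribosomal protein gene (0.76), and ZIM3, a zinc finger gene (0.76). Those most like DUXA were ZIM3 (0.79), NUPL2, a nucleoporin gene (0.77), SNURF (0.74), ARGFX (0.71) and FAM161A (0.67). SNURF had at most 1.54 CPM in parthenogenetic libraries and at least 79.1 CPM in all others, so its rho carries that group difference. These values are descriptions over libraries that share depth and scaling. In androgenetic replicate 6, where DUXA stood 10.1-fold above any other library, ZIM3 had 132 CPM against at most 94.3 CPM elsewhere, NUPL2 72.7 against 45.7 CPM and SNURF 316 against 224 CPM. FAM161A went the other way, with 18.6 CPM in that library against up to 37.5 CPM elsewhere. Of the rows most like ARGFX, RPL31 had 802 CPM in androgenetic replicate 6 against up to 1774 CPM elsewhere. DYNLT1, HMGN3, TRPM6 and ZIM3 had their highest levels in androgenetic replicate 6. For DPRX no such order is given, since 7 of its 15 values are tied at 0.

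ZIM3 is also the next protein-coding gene to DUXA on chromosome 18 in the RefSeq table of ARS-UCD2.0, which served for names and order only. Its means were 59.9 ± 41.2 CPM in the androgenetic, 17.1 ± 10.7 CPM in the parthenogenetic and 33.8 ± 34.1 CPM in the ICSI group (n = 5 each), in the same order as the means of DUXA. USP29, on the far side of ZIM3, had 0 counts in androgenetic replicate 6 and up to 93 elsewhere. ZNF543, on the other side of DUXA, had 19.7 CPM in androgenetic replicate 6, near its androgenetic mean of 13.6 ± 10.7 CPM. The excess of DUXA in that library was thus not seen at that size in these 3 neighbours. The 3 nearest protein-coding genes on each side of ARGFX had no symbol row.

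Few other genes of this class could be read. Of 47 genes of the PRD-like and related homeobox list, ARGFX, DUXA and DPRX alone had a symbol row, and of 41 genes of embryonic genome activation ZSCAN5B was the only further one. ZSCAN5B, a zinc finger gene, had 38 counts in androgenetic replicate 6 and 12 counts in parthenogenetic replicate 1. Its only other count fell in androgenetic replicate 4, and 12 libraries had 0. Androgenetic replicate 6, the library with most DUXA, thus also had most ZSCAN5B, at 2.06 CPM. The 2 genes did not go together elsewhere. Parthenogenetic replicate 1, next for ZSCAN5B, had the lowest DUXA level of all, at 35.9 CPM. ICSI replicate 5, next for DUXA, had 0 counts of ZSCAN5B. SOX2, a pluripotency factor, had its lowest level in androgenetic replicate 6, at 3 counts. Over all libraries SOX2 had an r of -0.67 with DUXA (permutation p = 0.0173, adjusted p = 0.0303) but a rho of -0.14 (permutation p = 0.622, adjusted p = 0.903). Without androgenetic replicate 6 alone r was -0.18, so this relation rested largely on that library. Without the 2 libraries farthest from the median SOX2 level, androgenetic and parthenogenetic replicates 6, r was -0.05. In bulk libraries such as these, fewer cells with a transcript and less of it per cell cannot be told apart.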

How the data were processed

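Per the labels' protocols, bovine morula poly(A) RNA was amplified by SMART-Seq HT and sequenced as Nextera XT libraries. Trim Galore, cutadapt, STAR and featureCounts appear in the submitters' processing notes, while versions, build, annotation and strand setting are not given in the sources used here. Raw counts per row, not normalized, were deposited by the authors. Of 31999 rows 27607 carry an Ensembl identifier and no symbol.

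Groups and replicate numbers were read from the labels. Counts were fitted with edgeR 4.0.16 in R 4.3.3: TMM factors, default expression filter (minimum count 10), 15 libraries in 1 quasi-likelihood fit with a coefficient for each group. Adjusted p-values are Benjamini-Hochberg values over 16375 filtered rows, and calls are those under 0.05. The SE is the log2 fold change over the square root of F. Alternatives were DESeq2 1.42.0, its size factors, limma 3.58.1 voom, no filter, no scaling, fits of 2 groups, genes detected as a covariate, a replicate block, and libraries left out. Correlations used 100000 permutations. No label says that replicates are separate embryos or animals; p-values then reflect only the scatter of these libraries, which may be technical. Members, lists and tests were chosen with earlier results of these data known. Named genes were the members, symbol rows of the lists with a mean of at least 1 CPM, and the 5 most similar symbol rows of at least 5 CPM; ZSCAN5B and the neighbours were added after their values were seen.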

Additional observations from a re-analysis of the deposited data

Results flagged for a closer look

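Within groups of 5, a library was looked at again where its gap to the nearest other library exceeded 0.71 of the group's range (Dixon's 95% value). Chance gives this in about 1 in 20 groups of normally distributed values, but CPM are skewed: over all rows tested, 18.5% of the 48990 sets of 5 values held such a library (24.2% in the androgenetic, 17.4% in the parthenogenetic and 14.1% in the ICSI group). Among 12 group sets of values of the members and their ratio, this was met 6 times. Androgenetic replicate 6 and ICSI replicate 5 each count for DUXA and again for the ratio. That number is not like the 18.5%: DPRX did not pass the filter for the rows tested, and the ratio is built from DUXA. For DUXA the libraries were androgenetic replicate 6 at 6423 CPM (gap 0.939 of the range) and ICSI replicate 5 at 634 CPM (0.888). For DUXA counts per 100 ARGFX counts they were the same 2 libraries, at 163.7 (0.896) and 63.4 (0.730), so the excess of DUXA there went beyond that of ARGFX. Both are the libraries with fewest genes detected in their groups. For DPRX they were parthenogenetic replicate 5 at 1.22 CPM (0.844) and ICSI replicate 3 at 0.718 CPM (its gap is the whole range by construction, since the other 4 libraries are at 0), from 39 and 24 counts. ARGFX had 0 such libraries, although androgenetic replicate 6 had its highest level.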

How the results depend on the processing

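Of 144 refits of the 6 log2 fold changes of ARGFX and DUXA, 134 kept direction and call (for DUXA the 3 DESeq2 values, without a p, by direction alone), 4 gained a call and 6 changed sign. None of the 6 was called in the main fit, so a kept call means that the value stayed uncalled. A value that shrank without changing sign counts as kept, and some refits left out a library of the group outside the comparison. The count of 134 is therefore no measure of stability. DPRX was below the filter, so its log2 fold changes were fitted only without one. Single libraries moved group means by over 1.5 times: without androgenetic replicate 6 the mean CPM of DUXA fell from 1451 to 207 and that of ARGFX from 1619 to 1043, and without ICSI replicate 5 that of DUXA fell from 225 to 122. The mean CPM of DPRX fell from 0.144 to 0 without ICSI replicate 3, from 0.344 to 0.125 without parthenogenetic replicate 5 and from 0.0198 to 0.00941 without androgenetic replicate 2. Calls were gained by ARGFX with DESeq2 (1.61 against ICSI, 1.55 against parthenogenetic libraries) and by DUXA without single libraries. ARGFX in parthenogenetic against ICSI libraries changed sign with a replicate block (-0.0228), genes detected as a covariate (-0.0563) and library totals alone (-0.0821, added after the data were seen). Leaving out 1 library at a time gave -0.24 to 0.35 for this value, 0.93 to 1.81 and 0.86 to 1.72 for ARGFX in androgenetic against ICSI and parthenogenetic libraries, and, for DUXA, -0.0551 to 3.57 and 1.28 to 4.47 for androgenetic libraries against the ICSI and the parthenogenetic group, and -1.79 to -0.47 between the latter groups. The DUXA to ARGFX difference of androgenetic and ICSI libraries ranged from -0.91 to 0.0591, and that of parthenogenetic and ICSI libraries was -0.85 without the libraries with fewest genes, where 4 against 4 cannot pass over 3 comparisons unless another passes too.

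The number of rows called moved more. For androgenetic against ICSI libraries (461) it was 1987 with DESeq2, 876 with limma voom, 0 with a replicate block or genes detected as a covariate, 1630 without the libraries with fewest genes, and 0 to 1077 leaving out 1 library. For parthenogenetic against ICSI (12) it was 39 with DESeq2, 3 with the block, 6 without the libraries with fewest genes, and 3 to 14 leaving out 1. For androgenetic against parthenogenetic (287) it was 1678 with DESeq2, 703 with limma voom, 27 in a fit of 2 groups, 88 with the block, 154 with the covariate, 1874 without the libraries with fewest genes, and 14 to 903 leaving out 1. The cause was not tested. Same-numbered libraries did not deviate together (correlations of -0.05 to 0.09 in 12 pairs), so the numbers were not taken as pairs. With the block the log2 fold changes of DUXA were 0.33 for androgenetic against ICSI and 1.66 for androgenetic against parthenogenetic libraries.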
